A study of Mus musculus with 2 samples.

Results

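Genes of the secretory lineages of stomach and intestine were followed in dysplastic mouse gastric organoids. They are the trefoil factor genes Tff1, Tff2 and Tff3, the mucin gene Muc6, and Agr2, Clu, Psca, Ctse, Spink4 and Glipr1. These 10 of the 32227 genes in the matrices were chosen by symbol, with earlier results of these data known. The organoids were Meta4, a dysplastic line labelled as stomach corpus. Both groups carried Mist1-CreERT2Tg/+ together with LSL-K-ras(G12D)Tg/+, and both were labelled with Dysplasia induction as their treatment. CreERT2 under the Mist1 gene acts in chief cells, the pepsinogen-secreting cells of the corpus gland, and activates the mutant K-ras allele there. One group was kept with the solvent DMSO and the other with the anthelmintic drug pyrvinium, each for 1 day, and the study asked which cell populations of the organoids respond before the organoids lose their shape.

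Each group was 1 single-cell RNA sequencing library of 1 organoid line, made with PIPseq, a droplet method that captures the 3' ends of mRNA. There was therefore no replicate and no test, "higher" and "lower" compare these libraries and not the treatments, and every interval is a 95% interval of counting error. The intervals of levels and ratios treat each count as independent. They leave out variation between cells and are too narrow for genes that differ much between cells. Cells were barcodes with at least 9320 counts for DMSO and 13100 for pyrvinium, which gave 1602 and 854 cells with 39980497 and 37046673 counts. The pyrvinium cells were deeper, with a median of 31517 counts and 4687.5 genes against 18592.5 counts and 3644 genes. No cell barcode was shared by the libraries.

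Trefoil factors are small secreted peptides, held compact by disulfide bonds, that are released with mucus and help the surface of the gut to reseal after injury. In the normal stomach Tff1 is made with Muc5ac in surface mucous cells and Tff2 with Muc6 in mucous neck cells, whereas Tff3 and Spink4, a Kazal-type protease inhibitor, belong to intestinal goblet cells. Agr2 is a disulfide isomerase of the endoplasmic reticulum that helps mucins to fold, and Clu encodes clusterin, a secreted chaperone found in injured and regenerating epithelium. Psca is a small protein tethered to the cell surface, Ctse is the aspartic protease cathepsin E of the gastric lining, and Glipr1 is a secreted or membrane-bound protein of the CAP family.

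In the RefSeq gene order for GRCm38.p6, the 3 trefoil genes are neighbours on chromosome 17, in the order Tff3, Tff2, Tff1. Muc6 stands next to Muc2, the goblet cell mucin gene, on chromosome 7, and Agr2 next to Agr3 on chromosome 12. Glipr1 stands next to its relative Glipr1l1. The other members have no neighbour among the 10 genes and lie on chromosomes 14 (Clu), 15 (Psca), 1 (Ctse), 4 (Spink4) and, for Glipr1, 10. Of the 10 genes, promoter sequence was at hand for only Muc6 and Agr2, and both are shown. The 250 bases before the RefSeq start are written 5′ to 3′ on the strand of the gene, with the CCAAT motif, read on either strand as CCAAT or ATTGG, in capitals.
Muc6, chr7:141655394-141655643, minus strand: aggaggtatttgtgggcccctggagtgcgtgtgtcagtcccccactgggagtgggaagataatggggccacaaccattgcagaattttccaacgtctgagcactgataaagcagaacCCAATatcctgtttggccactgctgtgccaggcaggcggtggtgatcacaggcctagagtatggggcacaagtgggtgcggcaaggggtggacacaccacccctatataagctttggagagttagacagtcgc
Agr2, chr12:35992675-35992924, plus strand: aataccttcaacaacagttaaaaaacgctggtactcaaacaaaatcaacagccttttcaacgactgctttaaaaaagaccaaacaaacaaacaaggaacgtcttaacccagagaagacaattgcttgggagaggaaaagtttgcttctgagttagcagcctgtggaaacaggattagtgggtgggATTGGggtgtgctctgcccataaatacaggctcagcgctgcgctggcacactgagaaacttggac
The motif began 133 bases before the start of Muc6 and 65 bases before that of Agr2. CCAAT was present in 34.5% of 27025 promoter windows of this length, so its presence in both sets neither gene apart. On either strand, neither window held the letters TATAAA (in 13.0% of windows), the forkhead letters TGTTTAC or TGTTTGC (7.22%), or TGACGTG, an element of the unfolded protein response (1.61%). Other forms of the TATA box were not searched, and the Muc6 window reads tatataag near its end. A match is a description of letters, and its absence says nothing about a factor.

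Markers of these lineages were present in part. Of the 12 surface mucous genes listed, 9 stood at 1 CPM or more in the DMSO and 8 in the pyrvinium library, where CPM are counts per 1000000 counts of all kept cells of a library. That list summed to 561 and 325 CPM, mostly from Muc1 and Vsig1. Of 16 goblet cell genes, 11 stood at 1 CPM or more in each library, with sums of 118 and 69.9 CPM. The Paneth cell list summed to 452 and 260 CPM, nearly all from Mmp7 at 424 and 237 CPM and Itln1 at 28.2 and 22.5 CPM. Several defining genes of these lists were at or near 0. Muc5ac had 0 counts in the DMSO and 1 in the pyrvinium library, and the surface mucous gene Gkn2 had 4 and 1. Of the goblet cell markers, Atoh1 had 0 counts in both libraries, Clca1 had 3 and 1, and Muc2 had 19 and 3. The intestinal regulator Cdx2 had 1 count and 0 counts, the parietal cell gene Atp4b had 2 and 0, and the chief cell gene Pga5 and the Paneth cell gene Lyz1 had 0 in both. Cldn18, the tight junction protein of gastric epithelium, stood at 708 CPM for DMSO and 749 CPM for pyrvinium. Markers of mesenchyme summed to 1.23 and 1.24 CPM, those of immune cells to 21.9 and 29.5 CPM, those of endothelium to 44.1 and 60.4 CPM, nearly all from Cdh5, and those of general epithelium to 8904 and 5980 CPM. The intestinal epithelium list summed to 903 and 496 CPM, mostly Lgals4 at 785 and 381 CPM. The squamous and cornified list summed to 39290 and 23875 CPM, nearly all from the near-identical small proline-rich genes Sprr2a1, Sprr2a2 and Sprr2a3, whereas the basal keratin gene Krt5 had 1 count for DMSO and 3 for pyrvinium.

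Between the libraries, 5 of the 10 genes were at least 1.5-fold lower with pyrvinium with the whole interval below 1, and 0 were higher by that rule. Over all 15586 genes with at least 20 counts, 15.5% were lower and 7.57% were higher by the same rule. The 10 genes had a median log2 ratio of pyrvinium over DMSO of -0.62, against -0.08 over all these genes. The lower genes were Spink4, Agr2, Muc6, Clu and Glipr1, whereas the trefoil factors, Psca and Ctse lay within 1.5-fold.

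Among the trefoil factors, Tff1 stood at 333 CPM (interval 327 to 338) in the DMSO and 404 CPM (398 to 411) in the pyrvinium library, a log2 ratio of 0.28 (0.25 to 0.31). Tff2 stood at 30.2 CPM (28.6 to 32.0) and 33.7 CPM (31.8 to 35.6), a log2 ratio of 0.16 (0.04 to 0.27). The Tff2 difference rested on a single pyrvinium cell, which held 196 of the 1248 counts, and without the highest cell of each library the ratio was -0.02. Tff3 stood at 13.4 CPM (12.2 to 14.5) and 10.2 CPM (9.23 to 11.3), a log2 ratio of -0.38 (-0.58 to -0.19). None of the 3 differences reached 1.5-fold, and the direction for Tff1 and Tff2 turned when shared clusters of cells were weighted equally, to -0.65 and -0.18. With those weights Tff3 reached -1.86.

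Muc6 was scarce, with 155 counts (3.88 CPM, 3.29 to 4.54) in the DMSO library and 68 counts (1.84 CPM, 1.43 to 2.33) in the pyrvinium library. Its log2 ratio was -1.08 (-1.51 to -0.66), and it became -0.52 when 10% of each library was taken off as free RNA, with the smallest barcodes (10 to 100 counts) as its profile, and -1.72 with a cell threshold of 1000 counts in both libraries. Agr2, the folding enzyme, stood at 517 CPM (510 to 524) and 182 CPM (177 to 186), a level 2.85-fold lower with pyrvinium. Its log2 ratio of -1.51 (-1.55 to -1.47) lay between -1.91 and -1.42 in all 11 alternative settings. Agr3, its neighbour and paralog, had 40 and 14 counts.

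Clu stood at 3493 CPM (3475 to 3512) and 1860 CPM (1846 to 1874), 1.88-fold lower with pyrvinium. Glipr1 stood at 59.5 CPM (57.1 to 61.9) and 32.9 CPM (31.0 to 34.7), 1.81-fold lower. Spink4 stood at 15.8 CPM (14.6 to 17.1) and 4.72 CPM (4.05 to 5.48), 3.35-fold lower, with a log2 ratio of -1.74 (-1.99 to -1.50). A single pyrvinium cell held 68 of the 175 Spink4 counts of its library, and without the highest cell of each library the ratio was -2.28. It was -4.57 with equal weights for shared clusters, which left out the cluster with 88.0% of the pyrvinium Spink4 counts. Ctse was 1.27-fold lower, from 76.8 CPM (74.1 to 79.5) to 60.4 CPM (57.9 to 62.9). Psca was nearly level at 152 CPM (148 to 156) and 137 CPM (134 to 141), a log2 ratio of -0.15 (-0.20 to -0.09) that turned to 0.12 with equal cluster weights.

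**Figure D1:**
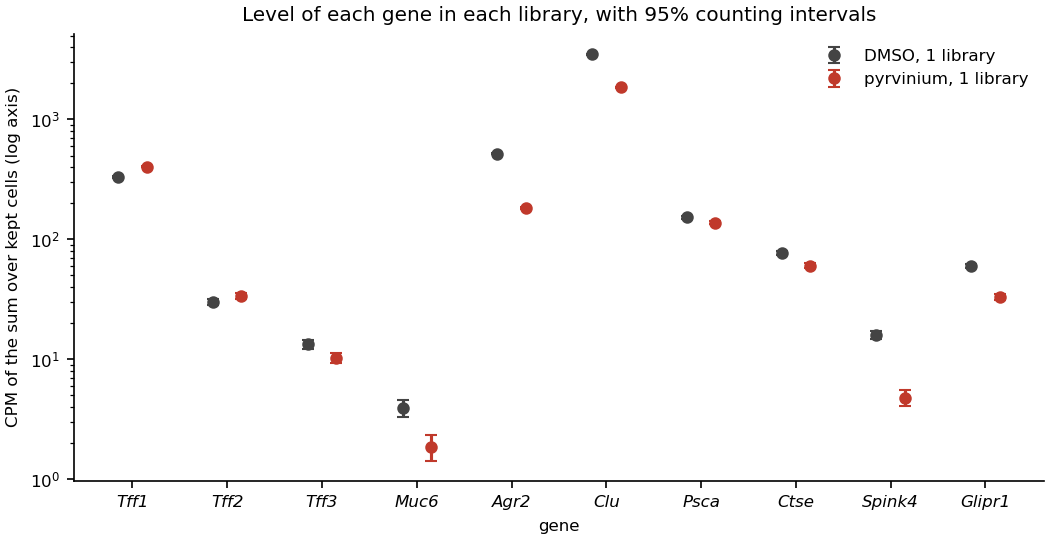
Level of each of the 10 genes in CPM (log axis) in the DMSO library (grey) and the pyrvinium library (red), with 95% Poisson intervals of the counts as bars, 1 library per group. Spink4, Agr2, Muc6, Clu and Glipr1 lie at least 1.5-fold lower in the pyrvinium library, and the points of the other 5 genes lie closer together.

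The genes differed widely in how many cells carried them. All cells were first reduced by random draws to the same 9000 counts, a depth that each of them had. Clu was counted in 99.3% of cells of both libraries. Agr2 was counted in 67.9% of DMSO cells (65.6 to 70.2, exact binomial interval) and 51.3% of pyrvinium cells (47.9 to 54.7), Psca in 51.0% and 51.1%, and Ctse in 46.4% and 38.3%. Tff1 was counted in 36.9% (34.5 to 39.3) and 45.9% (42.5 to 49.3), and Glipr1 in 35.2% and 24.8%. The others were in few cells: Tff2 in 10.9% and 9.84%, Tff3 in 6.12% and 5.50%, Spink4 in 7.43% and 2.22%, and Muc6 in 3.25% and 1.52%. Without thinning the shares were larger and the deeper pyrvinium cells gained more, with Tff1 in 51.1% and 70.0% and Agr2 in 79.2% and 76.0%.

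No cell type that should lack these genes could be named in the organoids, so the shares were set beside those that free RNA alone would give if it were 10% of each cell. With barcodes of 100 to 500 counts as the free RNA, this gave 24.1% and 28.0% for Tff1, 37.3% and 16.3% for Agr2, and 96.2% and 84.1% for Clu. For Muc6, Spink4, Tff2 and Tff3 it gave at most 2.30%. Every measured share was above its reckoned value, but the presence of Clu in nearly all cells carries little information, and the real amount of free RNA is not known. Some genes were at a higher level in those small DMSO barcodes than in the DMSO cells: Muc6 at 8.44 CPM against 3.88 CPM, Tff3 at 25.9 against 13.4 CPM and Ctse at 105 against 76.8 CPM.

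Where a gene was present it was often concentrated in few cells. The 5% of cells with the highest level of Tff1, 80 DMSO and 43 pyrvinium cells, held 53.7% and 50.9% of its counts. For the scarce genes the top 5% of cells held more: 64.8% and 75.1% for Tff2, 77.2% and 74.7% for Tff3, 85.8% and 94.1% for Muc6, and 72.4% and 89.1% for Spink4, shares that few counts per cell alone also raise. In Clu they held 18.3% and 14.9%, and in Ctse 17.8% and 16.2%, so these genes were spread over the cells. Agr2 lay between, at 31.7% and 25.2%, as did Psca at 32.2% and 26.6%.

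The variance over the mean of thinned counts, which is near 1 for even sampling noise, was 25.1 and 25.4 for Tff1. It was 34.8 and 18.9 for Clu, 20.6 and 8.02 for Agr2, and 1.70 and 1.47 for Ctse. The median was 1.09 over 8528 DMSO genes and 1.07 over 8254 pyrvinium genes above a minimum mean count. Tff1 ranked at place 18 among those DMSO genes and at place 6 among those pyrvinium genes, and Clu at places 8 and 11. The measure rises with the level of a gene wherever cells differ, so these places do not measure concentration in few cells. The highest Tff1 cells held 585 counts of the gene in the DMSO and 916 in the pyrvinium library.

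**Figure D2:**
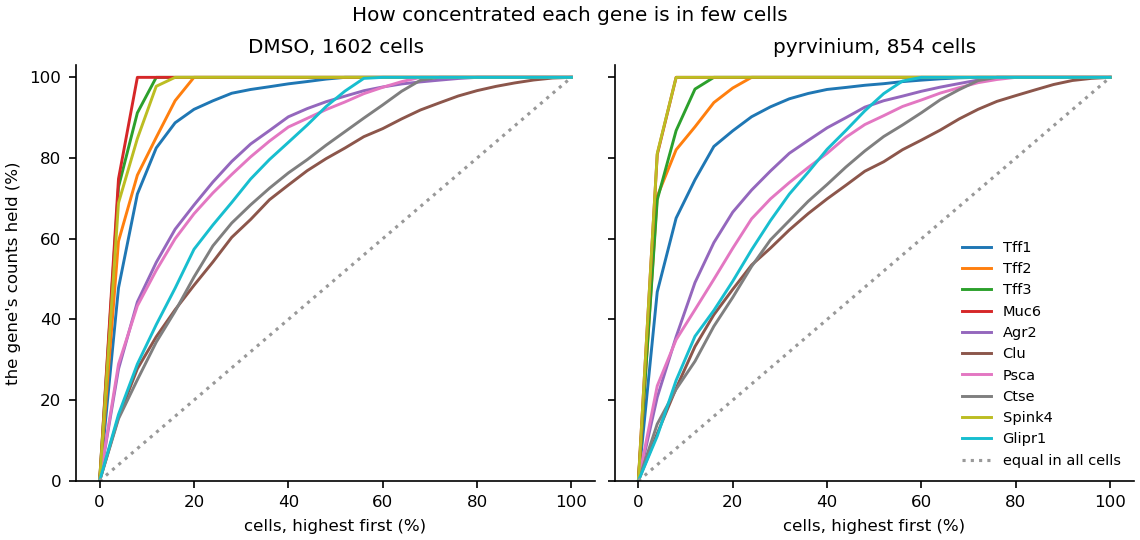
Share of each gene's counts (vertical axis, percent) held by the given share of cells (horizontal axis, percent), cells ordered from the highest level down, for 1602 DMSO cells (left) and 854 pyrvinium cells (right), with the dotted line for equal levels in all cells. Muc6, Tff3, Spink4 and Tff2 climb steeply, Tff1 follows, and Clu and Ctse lie nearest the dotted line.

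To see which genes occurred in the same cells, the number of thinned cells with both genes of a pair was divided by the number that the separate shares would give if the genes were independent. A pair was called together when this ratio was at least 1.5 and the interval of the joint share lay above the product, and apart for the reverse. Of the 45 pairs, 4 (8.89%) were together in the DMSO and 1 (2.22%) in the pyrvinium library, against 0.908% and 0.854% of all 67158255 pairs of 11590 genes. Apart were 0 and 1 of the 45 pairs, against 0.434% and 0.238%. Among genes in the same range of shares as the members other than Clu, a range set after the shares were seen, 1.03% and 1.12% of pairs were together and 0.619% and 0.324% apart. Genes present in many cells cannot reach the ratio, and only 28 and 36 of the 45 pairs could. Called neither together nor apart were 41 and 43 of the 45 pairs. The median ratio over the 45 pairs was 1.01 in both libraries. Pairs with Clu, present in nearly all cells, are held near 1, so this median says little about the other pairs.

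Among the trefoil factors, Tff2 and Tff3 shared cells in both libraries. They were counted together in 23 DMSO cells against 10.7 by their shares, a ratio of 2.15, and in 12 pyrvinium cells against 4.62, a ratio of 2.60. This was the 1 pair together in both libraries, by a rule that 0.0236% of all pairs met. Its ratio was between 1.61 and 5.36 over the other settings for thinning, doublets and minimum counts, with the lowest value from 3 pyrvinium cells after thinning to 5000 counts, too few to be called. Tff3 was counted in 13.1% of DMSO cells with Tff2 (8.52 to 19.1) and in 5.26% of those without (4.16 to 6.54). Tff1 and Tff3 were together in 55 DMSO cells against 36.2, a ratio of 1.52, and in 123 against 87.9 without thinning, which was not called. They were together in 29 pyrvinium cells against 21.6, a ratio of 1.34 that was not called. After thinning to 5000 counts they were in 20 pyrvinium cells against 11.3, a ratio of 1.77 that met the rule. With at least 2 counts of each gene the ratio was 2.08, from 10 cells against 4.81. It was between 1.20 and 1.42 in the other pyrvinium settings. Tff1 and Tff2 had ratios of 1.29 and 1.48, which were not called, but in the pyrvinium library the ratio was 1.60 at 5000 counts, 1.68 with another random seed and 2.18 for at least 2 counts of each gene. For DMSO it was 1.60 with at least 2 counts.

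Spink4 joined Tff2 and Muc6 in the DMSO library. Spink4 and Tff2 were together in 23 DMSO cells against 13.0, a ratio of 1.77, and Spink4 and Muc6 in 11 cells against 3.86, a ratio of 2.85. Without thinning these were 67 cells against 39.7 and 27 against 12.9. With at least 2 counts of each gene they were 5 against 1.85 and 2 against 0.46, too few to be called. Spink4 with Muc6 was also not called at 5000 counts, in 4 cells against 1.45. Of the DMSO cells with Muc6, 21.2% (11.1 to 34.7) also had Spink4, against 6.97% (5.75 to 8.35) of those without. In the pyrvinium library, where only 19 thinned cells had Spink4 and 13 had Muc6, these pairs were in 3 cells and 0 cells, against 1.87 and 0.29 by their shares, too few to compare.

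Tff1 and Muc6 had a ratio below 1 in both libraries. They were together in 12 DMSO cells against 19.2, a ratio of 0.63 that was not called, and in 1 pyrvinium cell against 5.97, a ratio of 0.17 and the 1 pair called apart. Across the 80 DMSO cells highest in Tff1 there was 1 count of Muc6 (0.45 CPM), whereas the other DMSO cells had 4.08 CPM. In the 43 pyrvinium cells highest in Tff1, Muc6 was at 0.50 CPM, from 1 count, against 1.91 CPM in the other pyrvinium cells, which was not called. The pyrvinium call for the pair rests on 13 cells with Muc6 and was not repeated in the alternative settings.

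The median cell held 4 of the 10 genes in the DMSO and 3 in the pyrvinium library after thinning. At least 7 were present in 30 DMSO cells (1.87%) and 10 pyrvinium cells (1.17%), against 0.873% and 0.307% if the genes were independent, and 0 cells held all 10.

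**Figure D3:**
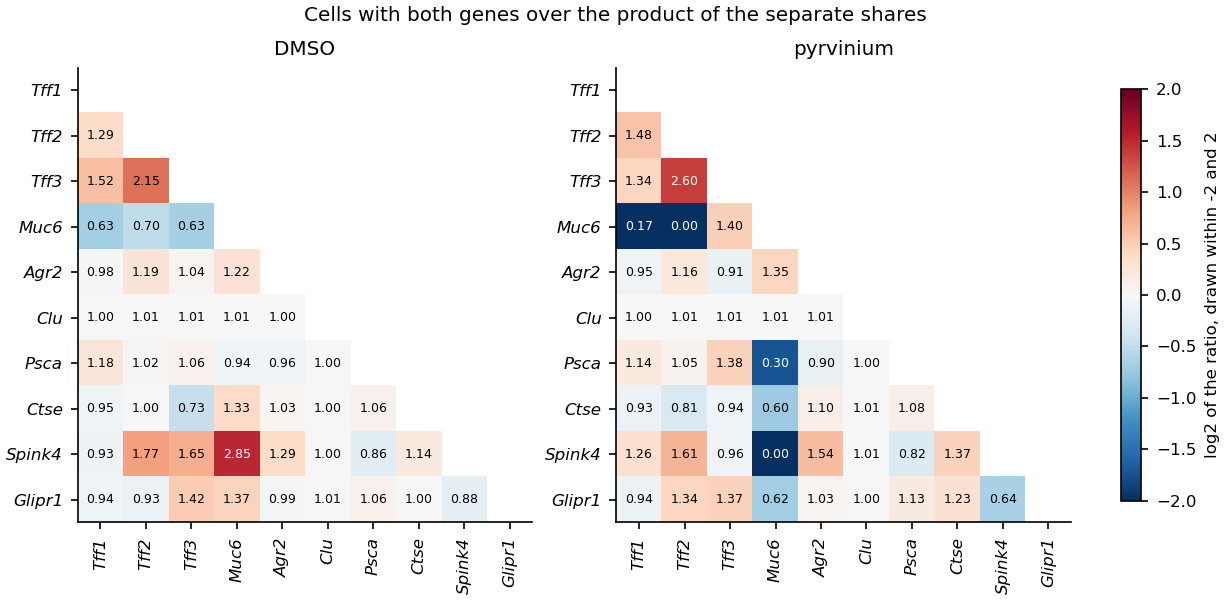
Ratio of the cells that hold both genes to the number given by their separate shares, printed for each of the 45 pairs after thinning to 9000 counts, with colour giving its log2 drawn within -2 and 2, for DMSO (left) and pyrvinium (right). Tff2 with Tff3 is red in both panels at 2.15 and 2.60, and Tff1 with Muc6 is blue in both at 0.63 and 0.17.

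Psca was counted in 60.2% of DMSO cells with Tff1 (56.2 to 64.2) and 45.6% of those without (42.5 to 48.7), and in 58.4% and 44.8% for pyrvinium. The ratios of this pair were 1.18 and 1.14, below the rule, and it was not called in either library. Spink4 was counted in 9.56% of DMSO cells with Agr2 (7.88 to 11.5) and 2.92% of those without (1.64 to 4.77). In the DMSO library this pair could not reach the ratio for a call because Agr2 is in so many cells. In the pyrvinium library it could, and was in 15 cells against 9.74, a ratio of 1.54 that was not called. Levels in the richest cells were then compared. The 80 DMSO cells highest in Psca had 1121 CPM of Tff1 and 159 CPM of Ctse, whereas the other DMSO cells had 294 CPM and 72.7 CPM. They had less Agr2, 221 CPM against 532 CPM. The 43 pyrvinium cells highest in Psca repeated this order with 1049 CPM of Tff1 against 376 CPM, 105 CPM of Ctse against 58.4 CPM, and 47.7 CPM of Agr2 against 188 CPM. When the single cell with the most Tff1 was taken out of the numerator, Tff1 was still at 810 CPM and 787 CPM.

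The 80 DMSO cells highest in Agr2 had 20.3 CPM of Muc6 against 3.20 CPM in the other cells, 85.1 CPM of Spink4 against 13.0 CPM, 102 CPM of Tff2 against 27.3 CPM and 6671 CPM of Clu against 3363 CPM. They had 29.9 CPM of Glipr1 against 60.7 CPM. In the 43 pyrvinium cells highest in Agr2, Clu was again higher, at 2973 CPM against 1819 CPM, and Psca lower, at 75.7 CPM against 140 CPM. The Tff2 and Glipr1 differences of the DMSO cells were not seen there, with 32.1 CPM of Tff2 against 33.7 CPM and 36.7 CPM of Glipr1 against 32.7 CPM. The Muc6 value there rested on 4 counts and the Spink4 value on the single cell with 68 counts. The cells highest in Clu were richer in Ctse in both libraries, at 190 CPM against 71.9 CPM for DMSO and 176 CPM against 56.5 CPM for pyrvinium.

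Cells were then clustered without the 10 genes, which gave 6 clusters that are named here by number and leading genes. Values were scaled within each library before clustering, and leading genes were found over the cells of both libraries pooled. Cluster 1 (299 DMSO and 0 pyrvinium cells) had Ndrg1 and Ero1a among its leading genes, cluster 2 (288 and 450) was led by Dusp4, Gdf15, Ddit3 and Areg, and cluster 3 (338 and 112) by the mitotic genes Ube2c, Cdc20, Aurkb and Plk1. Cluster 4 (447 and 22) was led by genes that include Ccne1, Mcm7 and Mcm5 of DNA replication and Spp1, cluster 5 (226 and 5) by Ifitm1, Itln1, Mmp7 and Reg3g, and cluster 6 (4 and 265) by Atf5, Hsd17b13 and Chac1. Only clusters 2 and 3 had at least 30 cells of each library. Within cluster 2, a list of integrated stress response genes was at 876 CPM for DMSO and 3182 CPM for pyrvinium. DMSO clusters 1 and 3 had more, at 1320 and 929 CPM, so the leading genes of cluster 2 do not mark its DMSO cells as rich in that list. Clusters 1, 4, 5 and 6 came almost wholly from 1 library, so cluster and library cannot be told apart there.

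In the DMSO library, Agr2 declined in the order cluster 5 at 1497 CPM (1461 to 1533), cluster 3 at 614 CPM, cluster 2 at 534 CPM, and clusters 1 and 4 at 237 and 230 CPM, whose intervals overlapped. Clu was at 6646 CPM (6570 to 6722) in cluster 5, followed by cluster 4 at 4227 CPM, cluster 3 at 3239 CPM, cluster 2 at 2471 CPM and cluster 1 at 1585 CPM. Cluster 5, with 226 of the 1602 DMSO cells, held 32.3% of the DMSO Muc6 counts, at 11.3 CPM (8.41 to 14.9). Spink4 was at 31.0 CPM in cluster 5 and 34.8 CPM in cluster 2, with overlapping intervals, and at 4.93 to 10.7 CPM in the others. A single cell held 74 of the 286 Spink4 counts of cluster 2.

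Tff1 and Tff3 were low in the same cluster 5, with 35.1 CPM (29.8 to 41.1) of Tff1 and 2.95 CPM (1.57 to 5.04) of Tff3. These were each 11.4% of the level in DMSO barcodes with 100 to 500 counts. Tff1 was at 729 CPM (711 to 748) in cluster 2, 418 CPM in cluster 1, 254 CPM in cluster 4 and 153 CPM in cluster 3. Tff2 was also at its highest in cluster 2, at 63.3 CPM (58.0 to 69.0), and at its lowest in cluster 1, at 8.44 CPM (6.37 to 11.0). Tff3 was at 21.5 CPM in cluster 4 and 17.5 CPM in cluster 3, the latter falling to 7.50 CPM without 1 cell that held 87 counts. In cluster 2 it was at 10.9 CPM. In cluster 1, where Tff1 was not low, Tff3 was at 3.31 CPM (2.08 to 5.02), an interval that overlaps that of cluster 5.

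Psca and Ctse were high in cluster 1. Psca stood there at 376 CPM (361 to 391), then at 194 CPM in cluster 2, 95.3 CPM in cluster 4, 75.7 CPM in cluster 5 and 59.2 CPM in cluster 3. Ctse stood at 119 CPM in cluster 1 and 104 CPM in cluster 5, with overlapping intervals, and at 57.3 to 66.7 CPM in the others. Glipr1 was at 77.7 CPM (72.8 to 82.8) in cluster 4 and at 34.4 CPM (29.2 to 40.4) in cluster 5. These are rankings of levels: cluster 5 held 31.9% of the DMSO Agr2 counts and 21.0% of the Clu counts, and cluster 4 held 36.2% of the latter. The surface mucous list, mostly Muc1 and Vsig1 by its library sum, was at 1033 CPM in cluster 5, where Tff1 was low, and 441 CPM in cluster 2, where Tff1 was high. The mucous neck list was at 3985 CPM and 5618 CPM in these clusters. Muc6, a gene of that list, went the other way, at 11.3 and 1.58 CPM, so the sum does not mark cluster 2 as neck cells.

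In the pyrvinium library, cluster 6 had 638 CPM of Tff1, 21.5 CPM of Tff3, 261 CPM of Agr2 and 2298 CPM of Clu, above pyrvinium clusters 2 and 3 for each of these genes. It held 88.0% of the Spink4 counts of the library, at 12.5 CPM, or 6.98 CPM without the cell with 68 counts. Psca was instead at 191 CPM (185 to 197) in cluster 2, which held 73.1% of the pyrvinium Psca counts, and at 72.9 CPM in cluster 6.

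In the clusters that both libraries filled, Agr2 was lower with pyrvinium in each, from 534 to 126 CPM in cluster 2 (log2 ratio -2.08, -2.15 to -2.01) and from 614 to 180 CPM in cluster 3 (-1.77, -1.88 to -1.66). Spink4 went from 34.8 to 0.82 CPM in cluster 2 and from 10.7 to 1.09 CPM in cluster 3, resting on 16 and 5 pyrvinium counts. Clu was lower in both, with log2 ratios of -0.60 and -1.04, as was Glipr1 with -0.99 and -0.65. Tff3 was lower in both, with -1.20 and -2.52. The latter came from 14 pyrvinium counts and was -1.64 without the highest cell of each library, the DMSO one holding 87 of 152 counts. For Muc6 the ratios were 0.64 (-0.27 to 1.65) and -1.93 (-3.63 to -0.57), from 48 and 5 pyrvinium counts.

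Tff1 differed in direction between these clusters. It was 729 CPM for DMSO and 288 CPM for pyrvinium in cluster 2, a log2 ratio of -1.34 (-1.39 to -1.29), and 153 and 273 CPM in cluster 3, a log2 ratio of 0.83 (0.72 to 0.95). Tff2 went the same way, with -0.67 (-0.84 to -0.51) and 0.73 (0.42 to 1.05), or -0.93 and 0.55 without the highest cell of each library in each cluster. Psca was level in cluster 2 at -0.02 and 0.49 in cluster 3, and Ctse was -0.22 and -0.54, which were not called. The difference between the clusters was not tested, and the levels in cluster 6, almost wholly pyrvinium cells, enter neither.

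**Figure D4:**
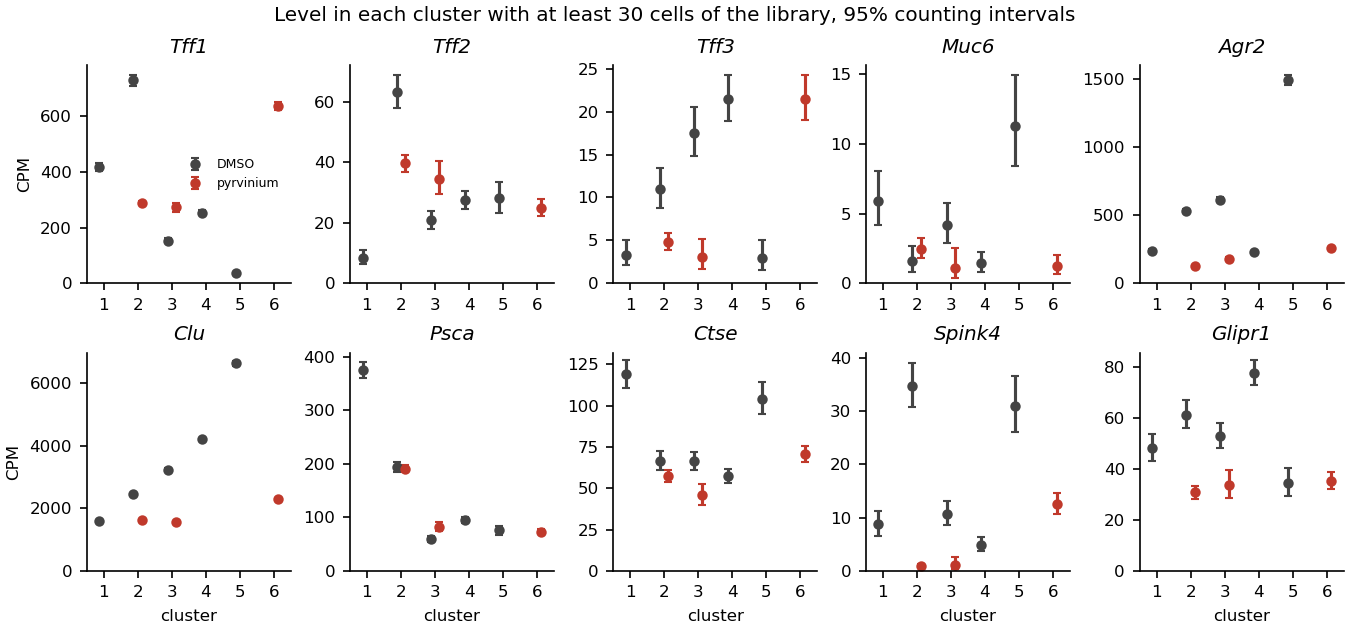
CPM of each gene (1 panel per gene, each with its own vertical axis) in clusters with at least 30 cells of a library, DMSO in grey and pyrvinium in red, with 95% Poisson intervals, for clusters made without these genes. Agr2, Clu and Muc6 are at their highest in DMSO cluster 5, where Tff1 is at 35.1 CPM, and Psca is at its highest in DMSO cluster 1.

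The genes were next read along lists of other genes, none of which included the 10. Cells of each library were put in 4 equal bins by their thinned counts of a list. Along 13 genes of the hypoxia response, Psca went through the DMSO bins from 70.3 CPM (61.9 to 79.5) to 83.1, 146 and 317 CPM (299 to 336), and Ctse from 66.9 to 70.7, 82.2 and 125 CPM. Tff1 went from 143 to 155, 396 and 439 CPM. Clu went the other way, from 4351 CPM (4283 to 4419) and 4651 CPM in the lowest bins to 3441 and 2006 CPM (1960 to 2053). The list was itself lower with pyrvinium, with a summed level of 1434 CPM for DMSO and 405 CPM for pyrvinium and 11 of its 13 genes called lower. In the pyrvinium bins Psca was between 119 and 158 CPM and Clu between 1908 and 2034 CPM. Those bins spanned median list counts of only 1, 3, 4 and 6, against 2, 5, 12 and 35 for DMSO, so they do not reach the range where the DMSO levels differed most. The part of this list in the differences between libraries was not tested.

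Along 25 genes of the secretory pathway and disulfide folding, Agr2 went through the DMSO bins from 264 to 405, 534 and 1013 CPM and through the pyrvinium bins from 90.8 to 159, 173 and 372 CPM. The order was the same in both libraries at different levels. Muc6 was at 1.67, 4.16 and 2.78 CPM in the lower DMSO bins and 12.5 CPM (9.09 to 16.7) in the highest. Along 19 transcription factors of secretory cells, Spink4 was at 8.61, 12.5 and 9.17 CPM and then 34.6 CPM (28.8 to 41.3) in the DMSO bins. It was at 0.52 CPM in each of the 3 lower pyrvinium bins, from 1 thinned count each, and at 17.7 CPM in the highest, or 8.31 CPM without the cell richest in it.

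Along 12 surface mucous genes, Clu went from 2322 CPM in the lowest to 5973 CPM in the highest DMSO bin and from 1170 to 3068 CPM in the pyrvinium bins, and Agr2 from 317 to 1028 CPM and from 105 to 355 CPM. The level of this list came mostly from Muc1 and Vsig1, with Muc5ac and Gkn2 at or near 0. Its bins therefore do not stand for surface mucous cells, and Muc1 was itself among the genes most like Clu. Along 16 genes of DNA synthesis, Psca went from 280 CPM (263 to 298) in the DMSO cells with the fewest such counts to 76.2 CPM (67.5 to 85.8) in those with the most, and Ctse from 130 to 64.6 CPM. In the pyrvinium library Psca went from 166 CPM (149 to 186) to 105 CPM (91.4 to 121), whereas Ctse was 64.7 CPM in the lowest and 68.0 CPM in the highest bin. DMSO Tff3 was at 4.44, 10.8, 13.6 and 19.4 CPM, the last being 10.8 CPM without 1 cell, and pyrvinium Tff3 at 9.91 CPM in the lowest and 11.9 CPM in the highest bin.

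**Figure D5:**
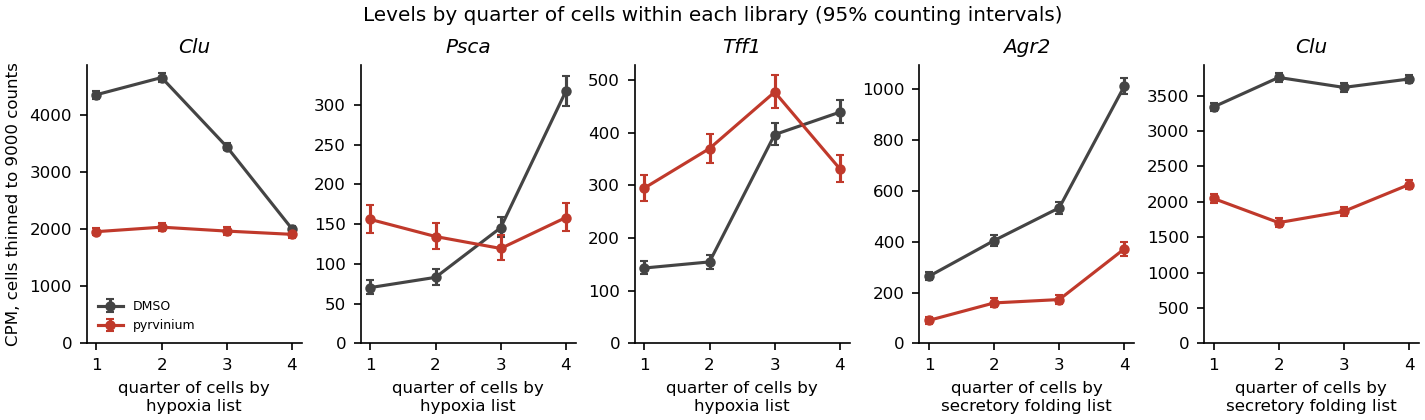
CPM of chosen genes in 4 equal bins of cells of each library, ordered from the fewest to the most thinned counts of a list of other genes, with 95% Poisson intervals, DMSO in grey and pyrvinium in red. Along the hypoxia list DMSO Psca climbs from 70.3 to 317 CPM and DMSO Clu ends at 2006 CPM, and along the folding list Agr2 climbs in both libraries.

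Other genes of these lineages were counted by the same rule. Of 10 surface mucous genes with at least 20 counts, 4 were lower, 0 higher and 6 within 1.5-fold, with a median log2 ratio of -0.47. They include Muc1, a membrane mucin, at 264 and 111 CPM and Vsig1, a gastric adhesion protein, at 111 and 67.4 CPM. Of 10 mucous neck and SPEM genes (spasmolytic polypeptide-expressing metaplasia, named after Tff2), 5 were lower and 1 higher, with a median of -0.55. The higher gene was Wfdc2, a secreted protease inhibitor of metaplastic glands, at 2339 and 3752 CPM, and with it the summed level of the list was 4773 and 6270 CPM, against the direction of the median. This list holds Muc6 itself.

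Of 13 goblet cell genes, which include Tff3 and Spink4, 6 were lower and 1 higher, with a median of -0.51. Creb3l4, a membrane-bound transcription factor of secretory cells, stood at 18.2 and 6.69 CPM, and Spdef, the regulator of goblet and neck cell maturation, at 18.7 and 8.53 CPM. Of 16 transcription factors of secretory cells, 8 were lower and 0 higher, with a median of -0.54, among them Foxa1 at 33.2 and 17.2 CPM.

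Of 25 genes of the secretory pathway and disulfide folding, 5 were lower, 1 higher and 19 within 1.5-fold, with a median of -0.32. Ero1a, the oxidase that feeds disulfide bonds to isomerases, stood at 283 and 106 CPM, and the isomerase P4hb at 640 and 380 CPM. The higher gene was the chaperone Hspa5, at 350 and 526 CPM. Of 16 mucin O-glycosylation genes, 1 was lower, Gcnt1 at 22.8 and 14.6 CPM, and 15 lay within 1.5-fold, with a median of -0.10 that is close to that of all genes.

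The genes most like each member across cells were found among 10107 genes by the lower of the Pearson correlations of log values in the 1602 DMSO and the 854 pyrvinium cells. Cells share depth after thinning but also library and cell cycle, so these values describe and do not test. Agr2 was most like Ifitm3 (0.36), Gstm1 (0.34) and Selenop (0.30), and Tff1 most like Phgr1 (0.31), Plac8 (0.30) and S100a6 (0.28). Clu was most like Ndufa4 (0.33), Muc1 (0.33) and Fxyd3 (0.32), and Psca like Gsta1 (0.34), Gm3776 (0.34) and Msln (0.30), the last being mesothelin, another protein tethered to the cell surface. Gsta1 and Gm3776 are near-identical glutathione transferase genes whose reads may be split between them. For Ctse the nearest gene was Clu (0.20). For Tff2, Tff3, Muc6, Spink4 and Glipr1 no gene passed 0.16, and at such sparse counts no likeness is read from them.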

How the data were processed

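PIPseq capture and its T2 library kit are stated in the labels' protocols. The submitters' processing notes name Partek and the build GRCm39, and the aligner, counter and annotation are not given in what was used here. The deposited values are raw counts per gene and barcode, without normalization. The sources do not tell molecules from deduplicated reads. A cell was a barcode that reached 1/10 of the 99th percentile of the 2000 deepest barcodes in its library and had 500 or more genes and no more than 20% mitochondrial counts. The mitochondrial limit removed 0 barcodes.

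Doublets were kept in the main setting. Counts were summed per library and given as CPM with exact Poisson intervals, and ratios with exact conditional binomial intervals. Shares have exact Clopper-Pearson intervals. Cells were clustered on 2000 variable genes, scaled within each library, without the 10 members (30 principal components, 15 neighbours, Leiden resolution 0.5). The scripts used Python 3.11.15, numpy 2.4.6, scipy 1.17.1 and scanpy 1.11.5 and were tested on simulated data. The simulated levels had no variation between cells, so they do not show how the intervals hold where cells differ.

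Alternatives were cell thresholds of 1000 and 3000 counts, cells of equal depth range, other scalings, the mean over cells, removal of likely doublets, free RNA subtraction and other thinning. Another kept only the 2 shared clusters, with equal weights. The members and gene lists were chosen with earlier results of these data known. Genes named are the members, the 3 genes most like each, up to 4 of each list with the largest ratio among those at 10 CPM or more, and lineage markers at or near 0. Promoters are from RefSeq with GRCm38.p6, which matched 2 of the 10 members, and no coordinate of the files' build was used.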

Additional observations from a re-analysis of the deposited data

Results flagged for a closer look

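Tff1 and Tff2 differed in direction between the clusters that held cells of both libraries. In cluster 2, led over both libraries pooled by Dusp4, Gdf15, Ddit3 and Areg, the log2 ratio of pyrvinium over DMSO was -1.34 for Tff1 and -0.67 for Tff2. In cluster 3, led by mitotic genes, it was 0.83 for Tff1 and 0.73 for Tff2. Each group was 1 library, so this difference between clusters was not tested. Cluster 2 held 288 DMSO and 450 pyrvinium cells, and cluster 3 held 338 and 112. Integrated stress response genes were at 876 CPM in the DMSO and 3182 CPM in the pyrvinium cells of cluster 2, so its cells were not alike in the 2 libraries. Without the highest cell of each library in each cluster, the ratios were -1.29 and 0.81 for Tff1 and -0.93 and 0.55 for Tff2.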

How the results depend on the processing

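The number of members called lower was 5 in the main setting and in 9 of 11 alternatives. It was 4 with 10% of free RNA subtracted in the profile of the smallest barcodes, where Muc6 was no longer called. With equal weights for the shared clusters 2 and 3, which left out the cells of all other clusters, it was 7, with Tff1 and Tff3 added. The number called higher was 0 in each of the 11. The pairs together in the DMSO library numbered 3 without thinning, where Tff1 with Tff3 was not called, and 4 in the other alternatives. Those 4 were not always the same pairs. Spink4 with Muc6 was not called at 5000 counts. With at least 2 counts of each gene, neither Spink4 with Muc6 nor Spink4 with Tff2 was called, whereas Tff1 with Tff2 was. In the pyrvinium library there was 1 such pair in the main setting, but 2 when thinned to 5000 counts and 2 with another random seed. There were 3 when at least 2 counts of each gene were asked for, and the cause was not tested. At 5000 counts the pairs were Tff1 with Tff2 and Tff1 with Tff3, and not Tff2 with Tff3 of the main setting. Taking out the cell with the most counts of a gene was an alternative added after the data were seen. Muc6, Spink4, Tff2 and Tff3 are limited by depth: 13 to 84 pyrvinium cells carried each of them after thinning. No paired analysis was possible because each group was 1 library.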
